A study of Mus musculus with 12 samples.

Results

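Macrophages sorted from GL261 gliomas were set against the blood population labelled macrophage high from tumor-bearing mice, gene by gene, as the log2 difference of the tumor brain macrophage array minus the tumor blood macrophage high array. These are 2 of the 12 arrays of the series, chosen by their sample titles, and 19937 genes with a symbol of their own were compared. Both arrays came from C57BL/6 mice that received GL261 cells, a mouse glioma line, at 7 weeks of age and were killed 2 weeks later. Per the study's methods, brain macrophages (MP) were sorted as CD11b+/CD45high cells and microglia (MG) as CD11b+/CD45low cells, and tissue was digested with trypsin. What separates the high from the low blood macrophage gate is not given in the sources used here, nor is the number of mice behind an array. The other 10 arrays are tumor brain MG, Gr1+ and Gr1- cells of tumor brain and tumor blood, the tumor blood macrophage low cells, and brain MG, brain MP and blood macrophage high and low cells of normal mice, and they are given here only for the level of a gene elsewhere.

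Monocytes leave the bone marrow, circulate as Ly6C-high classical or Ly6C-low non-classical cells, and can enter a glioma, where they become macrophages beside the resident microglia, which settle in the brain before birth. Tissue macrophages clear dying cells through receptors such as Mertk and Axl, make the complement starter C1q, degrade what they take up in lysosomes rich in cathepsins, and present peptides on MHC class II. Neutrophils circulate in blood as short-lived cells loaded with granule proteins and respond to chemokines through Cxcr2.

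With 1 array per condition there is no replicate, so no value below carries an SD or a p-value, and differences describe these 2 arrays. As a yardstick for unspecific signal, each array was given a background, the level that 95% of 1027 olfactory receptor genes stayed under, since these genes serve smell and are not known for a role in myeloid cells. It was 9.23 on the tumor brain macrophage array and 9.02 on the tumor blood macrophage high array (log2 signal), and 32.0% and 34.9% of genes were above it. The log2 difference had an SD of 0.62 over the olfactory receptor genes and of 0.37 over 57 ribosomal protein genes, none of which was 2-fold apart. The median over all genes was 0.22, so a difference of 0 here stands a little below the middle of the table. Where the dimmer array was below background, the fold is given as a lower bound, with values below background raised to it.

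The identity of the sorted cells was checked first, and both labels hold only in part. The tumor brain macrophage array and the tumor brain MG array were 2-fold apart, with values below background raised to it, in only 1 of 19937 genes, the small nucleolar RNA Snora52, so on these arrays glioma MP and glioma MG can hardly be told apart. The tumor blood Gr1- array was nearly as close, with 7 genes apart, although it is labelled as blood. All differences below would therefore read much the same for glioma MG. The tumor blood macrophage high array stood nearest to the normal blood macrophage low array, with a Pearson correlation over genes of 0.91, against 0.52 with the normal array that shares its name and on which 11.2% of genes were above background. These correlations run across genes, which are not independent replicates.

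All 16 measured microglia markers were above background on the tumor brain macrophage array, with levels of 9.74 to 13.52, and 3 of them, Cst3, P2ry13 and Cx3cr1, were on the tumor blood macrophage high array. P2ry12, the purine receptor that steers microglial processes, had a level of 11.35 on the tumor brain macrophage array and 7.12 on the tumor blood macrophage high array, a difference of at least 5.05-fold. Tmem119, a membrane protein of microglia, had 12.33 and 7.29, and Sall1, the transcription factor of microglial identity, had 12.10 and 7.20. Of these 3 genes the tumor brain MG array had 11.17, 12.26 and 12.02. All 16 were at least 2-fold higher in the tumor brain macrophage array, against 8.6% of the 19937 genes. Their median difference was 4.07, or 3.83 after quantile normalization over the 12 arrays. On the arrays labelled tumor blood Gr1+ and Gr1-, 7 and 16 of the 16 microglia markers were above background. Whether the levels given below for these 2 arrays are those of blood cells was not tested. Of 18 genes of alternative activation and border macrophages 8 were above background on the tumor brain macrophage array, against 32.0% of the 19937 genes. Among them were Mrc1, Ms4a7 and Stab1. Lyve1 and Cd163, at 7.61 and 7.23, were below it, and the normal brain macrophage array had 13.28 and 11.54.

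The tumor blood macrophage high array carried genes of several blood cells at once. Of 22 neutrophil markers, 3 were above background on the tumor brain macrophage array and 14 on the tumor blood macrophage high array. All 12 non-classical monocyte markers and all 10 measured classical monocyte markers were above background on the blood array, against 4 and 6 on the tumor brain macrophage array. B cell markers were above it in 2 of 10 cases on the tumor brain macrophage array and in 7 of 10 on the blood array, among them Cd79a, part of the B cell receptor, with 6.80 on the tumor brain macrophage array and 10.99 on the blood array. Alas2, the heme enzyme of red cell precursors, had 7.70 on the tumor brain macrophage array and 12.06 on the blood array, and 2 of 6 erythroid markers were above background in blood against 0 in the tumor. None of 13 NK cell markers was above background on either array. Of brain cell genes, 2 of 6 oligodendrocyte and 2 of 7 astrocyte markers were above background on the tumor brain macrophage array, and 0 on the blood array. They were the myelin genes Mbp and Mobp, with 11.10 and 10.42, and the astrocyte glutamate transporters Slc1a2 and Slc1a3, with 11.34 and 10.00. The other members of both lists, such as Mog and Gfap, were below background on both arrays. Of 8 neuron markers 1 was above background on each array. Over the 19937 genes, 32.0% were above background on the tumor brain macrophage array and 34.9% on the blood array. The 2 of 6 oligodendrocyte, 2 of 7 astrocyte and, in blood, 2 of 6 erythroid markers are near these shares, so these counts alone say little. In bulk RNA, more cells of a type and more RNA per cell cannot be told apart, and the part of these other cells in the differences below was not tested.

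**Figure D1:**
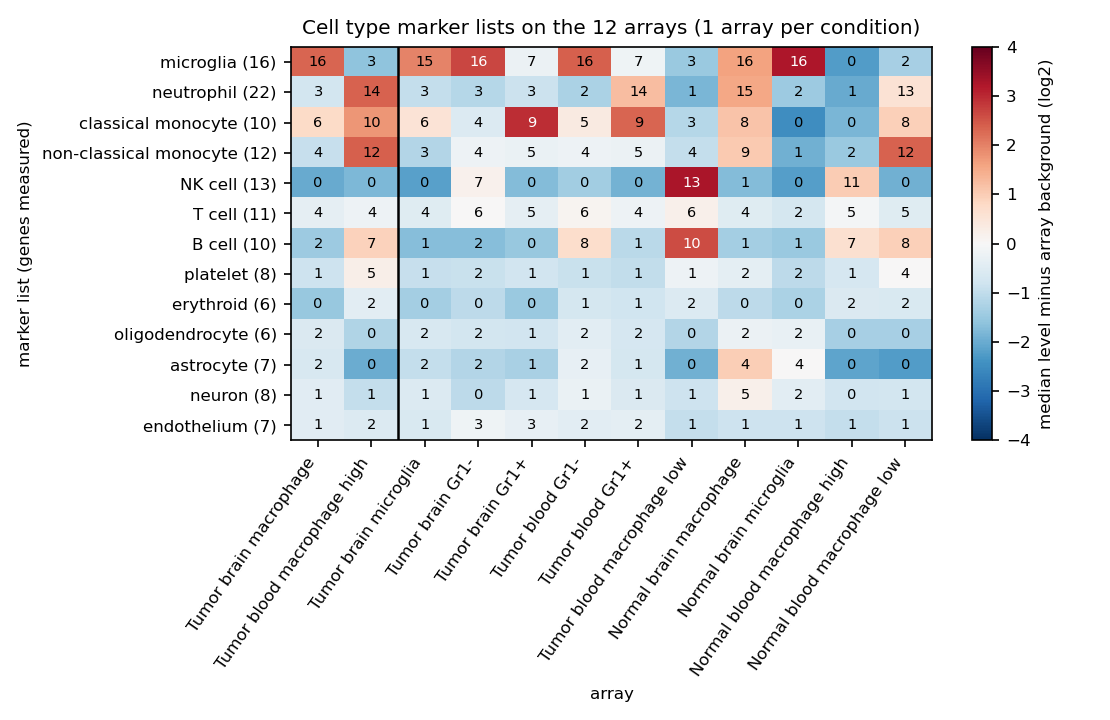
Median level of each cell type marker list relative to the background of each array (colour, log2), with the number of its genes above background written in each cell, for the tumor brain macrophage array, the tumor blood macrophage high array and the other 10 arrays. The tumor brain macrophage column has 16 of 16 microglia genes and 3 of 22 neutrophil genes above background, and the tumor blood macrophage high column has 3 and 14.

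Across the table, the tumor brain macrophage array was at least 2-fold higher in 1714 genes (8.6%) and at least 2-fold lower in 1237 (6.2%). The count of higher genes is weak on its own, since 7.11% of the olfactory receptor genes also passed it, against 1.07% on the lower side, and 1096 of the higher genes were below background on both arrays. With values below background raised to it, 344 genes (1.73%) were at least 2-fold higher and 736 (3.69%) at least 2-fold lower, and no olfactory receptor gene passed. At a 4-fold threshold these counts were 78 (0.391%) and 148 (0.742%). Quantile normalization over the 12 arrays gave 991 higher and 1426 lower genes. The share of higher genes among those 2-fold apart was 58.1% as deposited, 41.0% after quantile normalization and 31.9% with the floor at background, so which side holds more genes depends on the scaling. Over the 5217 genes above background on both arrays, 173 were at least 2-fold higher and 445 at least 2-fold lower.

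**Figure D2:**
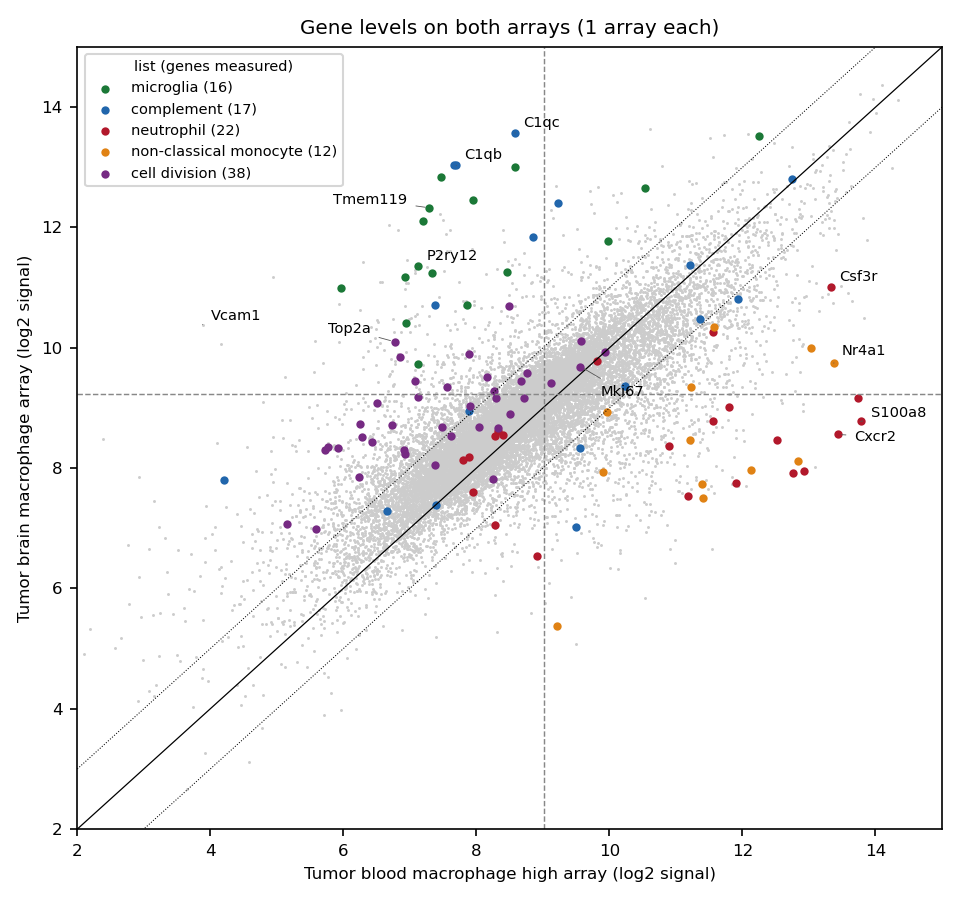
Level of each of 19937 genes on the tumor brain macrophage array (vertical) against the tumor blood macrophage high array (horizontal), both in log2 signal, with 5 gene lists in colour; dashed lines mark the background of each array, the solid line equal levels and dotted lines a 2-fold difference. Most microglia markers and the C1q genes lie in the upper left, bright on the tumor array and below background in blood. Most non-classical monocyte markers and many neutrophil markers lie in the lower right, and 8 of the 22 neutrophil markers are below background on both arrays.

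By the lower bound, the widest gap in favour of the tumor brain macrophage array belonged to C1q, the molecule that starts the classical complement cascade and tags debris for uptake. C1qc had a level of 13.57 on the tumor brain macrophage array and 8.58 on the tumor blood macrophage high array. C1qb had 13.03 and 7.70, and C1qa had 13.05 and 7.67. All 3 were below background in the blood cells, so the tumor brain macrophage array was at least 23.5-fold, 16.1-fold and 16.3-fold higher. After quantile normalization over the 12 arrays the difference of C1qb was 5.10, against 5.33 as deposited. C1q was also bright on the normal brain arrays, where C1qb had 12.43 in brain macrophages and 12.95 in brain microglia, so a high level was not a feature of tumor tissue alone. It was also bright on the tumor blood Gr1+ and Gr1- arrays, which held microglia markers too, and where C1qb had 11.19 and 12.87. On the tumor blood macrophage low array it was not, with 6.28 for C1qb.

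The promoter of C1qb is shown because this gene is among the widest apart and its window holds a match to AGGAAGT, a form of the site that ETS factors such as the myeloid regulator PU.1 bind; the match is in capitals (RefSeq, GRCm38.p6, chr4:136886201-136886350, minus strand, the 150 bases before the start).

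C1qb: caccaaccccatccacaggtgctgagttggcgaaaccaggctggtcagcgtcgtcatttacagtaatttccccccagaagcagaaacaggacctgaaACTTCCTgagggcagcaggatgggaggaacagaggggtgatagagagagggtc

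AGGAAGT was searched on both strands of 300-base windows, 250 before and 50 after the start, and 9.35% of all 32851 promoters held it. It was in 3 of 17 promoters of microglia markers, in 4 of 13 of complement genes and in 10 of 21 of neutrophil markers, so the letters were found among genes of both sides. A match is a description of the sequence and not a bound site.

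Of 17 measured complement genes, the 3 C1q chains included, 8 were at least 2-fold higher and 3 at least 2-fold lower, or 6 and 1 with the floor at background. Over the 19937 genes the shares were 8.6% and 6.2%, or 1.73% and 3.69% with the floor. The anaphylatoxin receptor C3ar1 had 12.40 on the tumor brain macrophage array and 9.23 on the blood array, a 9.02-fold difference above background on both. Cfb, the protease of the alternative pathway, had 11.83 and 8.85, at least 7.04-fold higher in the tumor, and C4b had 10.72 and 7.38. On the normal brain macrophage and normal brain MG arrays Cfb was below background, with 8.31 and 8.02. Cfb had 12.48 and 11.30 on the tumor blood Gr1+ and Gr1- arrays and 7.94 on the tumor blood macrophage low array. The C5a receptor C5ar1 went the other way, with 10.82 on the tumor brain macrophage array and 11.93 on the blood array. Cd55, a shield against complement on the cell's own surface, had 7.02 and 9.50, a bound of only 1.21-fold lower. Itgam, which encodes the CD11b used for the sort, was level, with 12.81 and 12.74.

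Of 15 measured receptors and bridges for the uptake of dying cells, 8 were at least 2-fold higher and 3 at least 2-fold lower, against 8.6% and 6.2% of the 19937 genes, with a median difference of 0.81 after quantile normalization. With the floor at background these were 5 and 3, with a median of 0.36. Mertk, a receptor kinase that reads phosphatidylserine through the bridge protein Gas6, had 12.04 on the tumor brain macrophage array and 6.68 on the blood array, at least 8.14-fold higher. Its relative Axl had 12.16 and 9.15, an 8.05-fold difference measured on both arrays. Axl had 9.15 on the normal brain MG array too, below its background, and 12.25 on the normal brain macrophage array. The bridge Pros1 had 10.42 and 8.19, and Gas6 had 9.56 and 6.70, for Gas6 a bound of only 1.46-fold. Anxa1, a phospholipid-binding protein abundant in granulocytes, stood on the opposite side, with 8.45 on the tumor brain macrophage array and 12.02 in blood, and so did the scavenger receptor Cd36, with 9.35 and 11.22, and the signalling adaptor Tyrobp, a partner of Trem2, with 12.13 and 13.38.

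Of 24 measured lysosomal genes 15 were at least 2-fold higher and 1 at least 2-fold lower, against 8.6% and 6.2% of the 19937 genes. With the floor these were 13 and 0. Of the 24, 21 were above background on the tumor brain macrophage array and 19 on the blood array. The median difference was 1.24 as deposited and 1.35 after quantile normalization. The protease Ctsl had 12.39 on the tumor brain macrophage array and 9.21 on the blood array, a 9.09-fold difference. Legumain (Lgmn), which matures other lysosomal proteases, had 13.64 and 10.60, an 8.19-fold difference. Cst7, a cathepsin inhibitor, had 11.07 and 6.94, and it was below background on both normal brain arrays, with 8.75 in macrophages and 7.83 in microglia. Ctsd had 13.50 and 11.51 and progranulin (Grn) 13.53 and 11.72. Ctse was the member at least 2-fold lower, with 7.35 and 8.86, both below background. Of 20 genes of lipid handling 6 were at least 2-fold higher and 2 at least 2-fold lower, against 8.6% and 6.2% of the 19937 genes, and 12 were between. The cholesterol exporter Abca1 had 12.39 on the tumor brain macrophage array and 9.72 on the blood array, a 6.36-fold difference, and apolipoprotein E (Apoe) had 13.56 and 12.08. Abcg1, also a cholesterol exporter, had 10.12 on the tumor brain macrophage array and 10.49 on the blood array, and the phospholipid transfer protein Pltp had 9.73 and 10.54.

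Among genes of antigen presentation, 5 of 8 measured class II genes were at least 2-fold higher, against 8.6% of the 19937 genes. With the floor at background those 5 became 4, against 1.73%. H2-Aa had 12.73 on the tumor brain macrophage array and 11.69 on the blood array, H2-Ab1 had 12.49 and 11.39, and H2-Eb1 had 12.76 and 11.72, so each was about as far apart as the 2-fold line. On the normal brain MG array the same 3 genes were below background, with 7.36 for H2-Ab1 and 7.68 for H2-Eb1, and on the normal brain macrophage array these had 12.86 and 13.07. None of the 11 measured genes of class I loading was 2-fold apart, with a median difference of 0.35, and B2m, the light chain of class I, had 14.37 and 14.10. The costimulator Cd86, which T cells need beside the peptide, had 11.07 and 8.82, at least 4.15-fold higher in the tumor, whereas Cd80 had 8.82 on the tumor brain macrophage array and 10.01 on the blood array. Cd274, which encodes the checkpoint ligand PD-L1, had 10.22 and 9.75, above background on both arrays. Its difference of 0.47 was within the SD of 0.62 of the olfactory receptor genes but above the 0.37 of the ribosomal protein genes.

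Among 8 measured guanylate-binding proteins and immunity-related GTPases, which attack vacuoles of microbes, all were above background on the tumor brain macrophage array and 4 on the blood array, and 6 were at least 2-fold higher with 0 lower, or 5 with the floor, with a median of 1.60. Gbp4 had 10.78 and 7.84, Gbp5 had 10.61 and 8.37, and Iigp1 had 10.73 and 5.93, so that these 3 were at least 3.40-fold, 3.01-fold and 3.27-fold higher in the tumor. On the normal brain macrophage array all 3 were below background, Gbp4 with 8.36 and Gbp5 with 8.11. Gbp5 had 11.66 and 10.45 on the tumor blood Gr1+ and Gr1- arrays and 8.67 on the tumor blood macrophage low array. The list of interferon-stimulated antiviral genes had 8 of 21 members at least 2-fold higher and 0 lower, with a median of 0.77, and 5 with the floor. For both lists the share of higher genes over the 19937 genes was 8.6%, or 1.73% with the floor. The difference between the 2 lists was not tested. Ifit2, an RNA-binding antiviral protein, had 10.31 and 7.72, whereas Rsad2 (viperin) had 10.16 on the tumor brain macrophage array and 10.85 on the blood array and Oas3 9.40 and 10.34. Irf7 was bright on both, with 11.67 and 10.90.

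The promoter of Gbp5 is shown as a member of this group whose window holds an interferon-stimulated response element, spelled GAAA, then 2 bases of any kind, then GAAA, on either strand and set in capitals (RefSeq, GRCm38.p6, chr3:142496754-142496933, plus strand, the 180 bases before the start).

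Gbp5: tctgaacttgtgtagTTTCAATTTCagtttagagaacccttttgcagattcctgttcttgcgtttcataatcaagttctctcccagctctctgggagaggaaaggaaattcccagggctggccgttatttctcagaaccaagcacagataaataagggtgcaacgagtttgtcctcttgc

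These letters were in 4 of 5 promoters of the GTPase list and in 9 of 16 of the interferon-stimulated list, against 3.44% of all promoters in the table.

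Of 21 chemokine ligands 12 were at least 2-fold higher and 2 at least 2-fold lower, against 8.6% and 6.2% of the 19937 genes, with a median of 1.79. With the floor at background these were 7 and 1, and the median was 0.21. Cxcl9, which draws Cxcr3-bearing T cells, had 12.12 on the tumor brain macrophage array and 7.49 on the blood array, at least 8.59-fold higher. Cxcl10, a ligand of the same receptor, had 11.76 and 8.42, at least 6.70-fold higher. Cxcl16 had 11.89 and 7.54, and Cxcl13, a B cell attractant, had 11.40 and 8.64. Of the monocyte attractants, Ccl2 had 10.26 and 6.87 and Ccl12 10.07 and 4.16. Since the blood level of Ccl12 was far below background, its deposited difference of 5.91 stands beside a bound of only 2.07-fold. Both normal brain arrays were below background for Cxcl9, with 8.60 in macrophages and 7.69 in microglia. By contrast, the tumor blood Gr1+ and Gr1- arrays, which also held microglia markers, had 12.18 and 11.53 for Cxcl9 and 12.52 and 11.05 for Cxcl10. On the tumor blood macrophage low array both genes were below background, with 6.74 and 7.76. Ccl6 led the lower side, with 10.75 on the tumor brain macrophage array and 13.37 on the blood array, a 6.15-fold difference, and the neutrophil attractant Cxcl2 had 8.44 and 10.10.

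**Figure D3:**
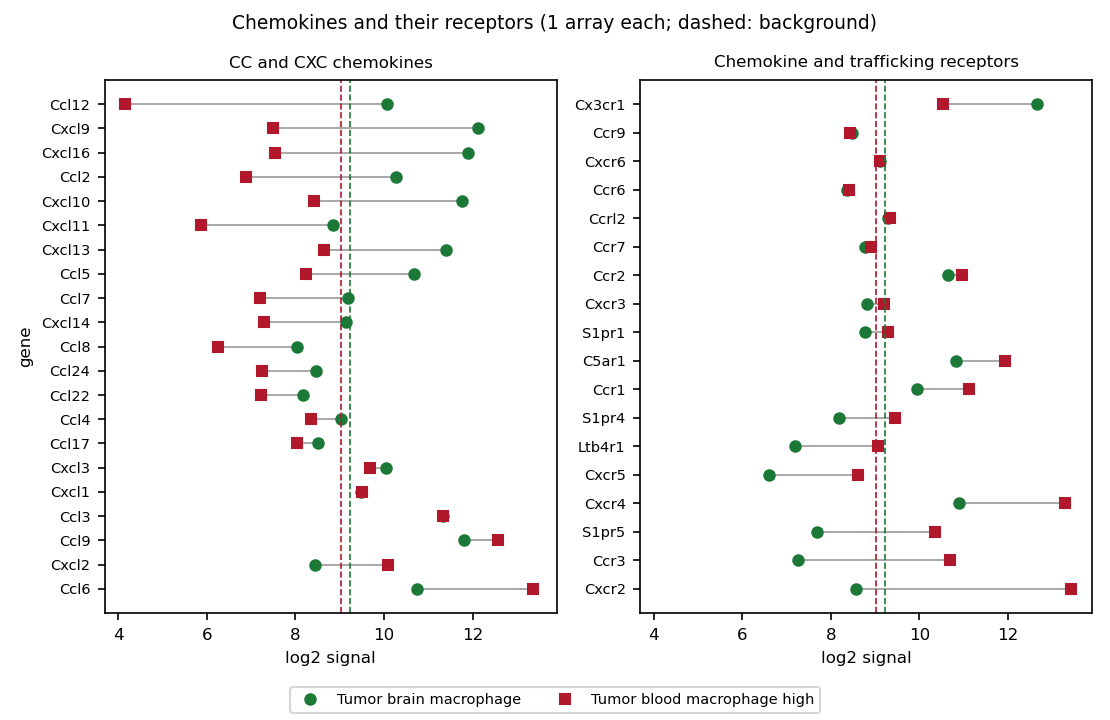
Level of each measured chemokine and receptor on the tumor brain macrophage array (green circles) and the tumor blood macrophage high array (red squares), in log2 signal, with the background of each array as a dashed line. Most ligands have the green circle to the right and most receptors the red square, with Ccl12 at 10.07 and 4.16 and Cxcr2 at 8.56 and 13.43.

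Of 18 measured receptors, which include those for the lipids S1P and leukotriene B4 and for C5a, 1 was at least 2-fold higher in the tumor and 9 were at least 2-fold lower, or 1 and 6 with the floor. Over the 19937 genes the shares were 8.6% and 6.2%, or 1.73% and 3.69% with the floor. Receptors of some of the ligands above were near level and near background. Cxcr3, which binds Cxcl9 and Cxcl10, had 8.81 on the tumor brain macrophage array and 9.21 on the blood array. Cxcr6, which binds Cxcl16, had 9.10 and 9.11. Both were below background on the tumor brain macrophage array and barely above it on the blood array. Cxcr2 had 8.56 on the tumor brain macrophage array and 13.43 on the blood array, at least 18.4-fold lower in the tumor. Cxcr4, which holds leukocytes in marrow and tissue, had 10.89 and 13.29, a 5.25-fold difference measured on both arrays. The exit receptor S1pr5 had 7.69 and 10.34, and Ccr1 had 9.95 and 11.11. Ccr2, the receptor by which classical monocytes leave the marrow, was close to level, with 10.64 on the tumor brain macrophage array and 10.96 on the blood array. Cx3cr1, the fractalkine receptor of microglia and non-classical monocytes, was the member higher in the tumor, with 12.66 and 10.53. Ccr3, a receptor of eosinophils and basophils, had 7.27 on the tumor brain macrophage array and 10.68 on the blood array, and on no other array was it above 8.23. Of genes looked at after that value was seen, Alox15 had 7.44 and 10.52 and the mast cell and basophil protease Cpa3 7.47 and 9.80, with 11.11 for Cpa3 on the tumor blood macrophage low array. The basophil protease Mcpt8, with 8.30 on the tumor brain macrophage array and 8.77 on the blood array, and the eosinophil granule genes Epx and Prg2 were below background on both.

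Of 21 integrin and adhesion genes 6 were at least 2-fold higher and 6 at least 2-fold lower, against 8.6% and 6.2% of the 19937 genes. The other 9 were between, among them Itgax, the CD11c chain, with 11.37 on the tumor brain macrophage array and 11.21 on the blood array, and Itgb1, with 11.06 and 11.58. Itgal, the LFA-1 chain of circulating leukocytes, had 10.00 on the tumor brain macrophage array and 13.03 on the blood array, an 8.20-fold difference. Itga4, the alpha chain of VLA-4, had 10.15 and 12.85, and the hyaluronan receptor Cd44 had 11.03 and 13.48. In the other direction Itgb5 had 12.61 on the tumor brain macrophage array and 9.71 on the blood array, a 7.48-fold difference, and the tetraspanin Cd81 had 12.68 and 9.19, an 11.3-fold difference and the widest of the higher genes above background on both arrays. Itga6, a laminin receptor, had 11.57 and 8.72. Vcam1, the ligand of VLA-4, had the largest deposited difference of any gene above background, 6.50, with 10.39 on the tumor brain macrophage array and 3.88 on the blood array, but the bound was 2.58-fold.

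Of 22 matrix and proteolysis genes 8 were at least 2-fold higher and 5 at least 2-fold lower, against 8.6% and 6.2% of the 19937 genes. With the floor these were 4 and 4, and on neither array did 8 of the 22 pass background. The gelatinase Mmp9 had 7.96 on the tumor brain macrophage array and 12.92 on the blood array, and the neutrophil collagenase Mmp8 had 7.93 and 12.76, at least 12.9-fold and 11.6-fold lower in the tumor. The membrane-bound protease Mmp14 had 11.08 and 6.98, at least 4.16-fold higher, with 9.25 on the normal brain macrophage array. Sparc, a matrix glycoprotein made by microglia and astrocytes, had 12.83 and 7.47. Fibronectin (Fn1) was bright on both, with 12.39 and 12.70.

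Cell cycle genes were higher on the tumor brain macrophage array on the deposited scale, and dim. Of 38 members 24 were at least 2-fold higher and 0 at least 2-fold lower, against 8.6% and 6.2% of the 19937 genes. The median was 1.37 as deposited and 0.96 after quantile normalization. However, 14 members were above background on the tumor brain macrophage array and 4 on the blood array, and with the floor 2 stayed at least 2-fold higher, against 1.73% of the 19937 genes. Top2a, which untangles replicated DNA, had 10.10 and 6.77, at least 2.12-fold higher. Ccnd1, the cyclin of entry into the cycle, had 10.70 and 8.49, at least 3.21-fold higher. The mitotic kinase Plk1 had 9.35 and 7.56, and the spindle gene Tpx2 9.46 and 7.07, but with the floor their differences were only 0.33 and 0.44. The proliferation antigen Mki67 did not follow them, with 9.69 on the tumor brain macrophage array and 9.56 on the blood array, and neither did Pcna, with 9.92 and 9.93. The 2 probe sets of Top2a differed by 3.33 and 1.01. On the normal arrays Top2a had 10.13 in brain macrophages and 7.49 in brain microglia.

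The promoters of Top2a and Mki67 are set side by side because both genes belong to the list and only the first was apart. Capitals mark CCAAT, the site of the factor NF-Y, and TTTGAA, the cell cycle homology region, each on either strand (RefSeq, GRCm38.p6, the 150 bases before each start, minus strand, chr11:99024190-99024339 and chr7:135716380-135716529).

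Top2a: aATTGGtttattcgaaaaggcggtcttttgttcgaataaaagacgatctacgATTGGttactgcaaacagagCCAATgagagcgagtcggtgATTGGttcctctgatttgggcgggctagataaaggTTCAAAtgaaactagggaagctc

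Mki67: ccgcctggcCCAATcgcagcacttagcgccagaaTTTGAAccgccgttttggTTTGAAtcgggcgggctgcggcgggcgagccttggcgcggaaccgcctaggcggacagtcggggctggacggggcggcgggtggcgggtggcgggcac

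Top2a had 4 matches to CCAAT and 1 to TTTGAA in the stretch shown, and Mki67 had 1 and 2. Over the list, 25 of 32 promoters held CCAAT and 18 of 32 held TTTGAA, against 37.4% and 17.9% of all promoters, and the gene that was apart and the one that was level held both.

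By the lower bound, the widest gaps in favour of the blood array belonged to the neutrophil genes S100a8, S100a9 and Cxcr2. Of the 15 genes with the widest deposited difference on this side, only S100a8, S100a9, Cxcr2, Mmp8 and Mmp9 are on the neutrophil list. The others were Il1f9, Rnf144a, Pglyrp1, Mctp2, Serpinb10, Defb39, Alas2, Padi4, Cerkl and Cd79a. Pglyrp1 is on the non-classical monocyte list. S100a8 and S100a9, which together form calprotectin, had 8.78 and 9.16 on the tumor brain macrophage array and 13.78 and 13.73 on the tumor blood macrophage high array, and both were at least 22.6-fold lower in the tumor. Il1f9, an interleukin of the interleukin-36 group, had 8.02 and 13.08, the widest deposited difference on this side, and was at least 14.4-fold lower. By the bound it came after S100a8, S100a9 and Cxcr2. The lipocalin Lcn2, which binds bacterial siderophores, had 8.47 and 12.53. Csf3r, the receptor for the growth factor of neutrophils, was above background on both arrays, with 11.01 and 13.33, a 4.97-fold difference. Over the neutrophil list 0 of 22 genes were at least 2-fold higher and 15 were at least 2-fold lower, against 6.2% of the 19937 genes, with a median of -2.45 and of -2.59 after quantile normalization. With the floor 13 were at least 2-fold lower, against 3.69%. Of the 22 markers 8 were below background on both arrays. Among these were the azurophil granule genes Mpo, Elane, Prtn3 and Ctsg, which belong to precursors in the marrow. The marker Ly6g, with 6.54 on the tumor brain macrophage array and 8.91 on the blood array, and Camp, Ltf and Fcnb were below it too. On the tumor blood Gr1+ array S100a8 had 12.92, and on the normal brain macrophage array 13.05, so the low level of the tumor brain macrophage array was shared with tumor brain MG, at 8.87, but not with macrophages of the normal brain.

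The promoter of S100a8 is shown as the counterpart of C1qb from the blood side, with AGGAAGT on either strand in capitals (RefSeq, GRCm38.p6, chr3:90668891-90669070, plus strand, the 180 bases before the start).

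S100a8: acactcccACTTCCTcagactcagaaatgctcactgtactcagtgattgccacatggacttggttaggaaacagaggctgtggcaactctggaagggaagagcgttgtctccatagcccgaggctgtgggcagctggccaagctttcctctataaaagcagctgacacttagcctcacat

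**Figure D4:**
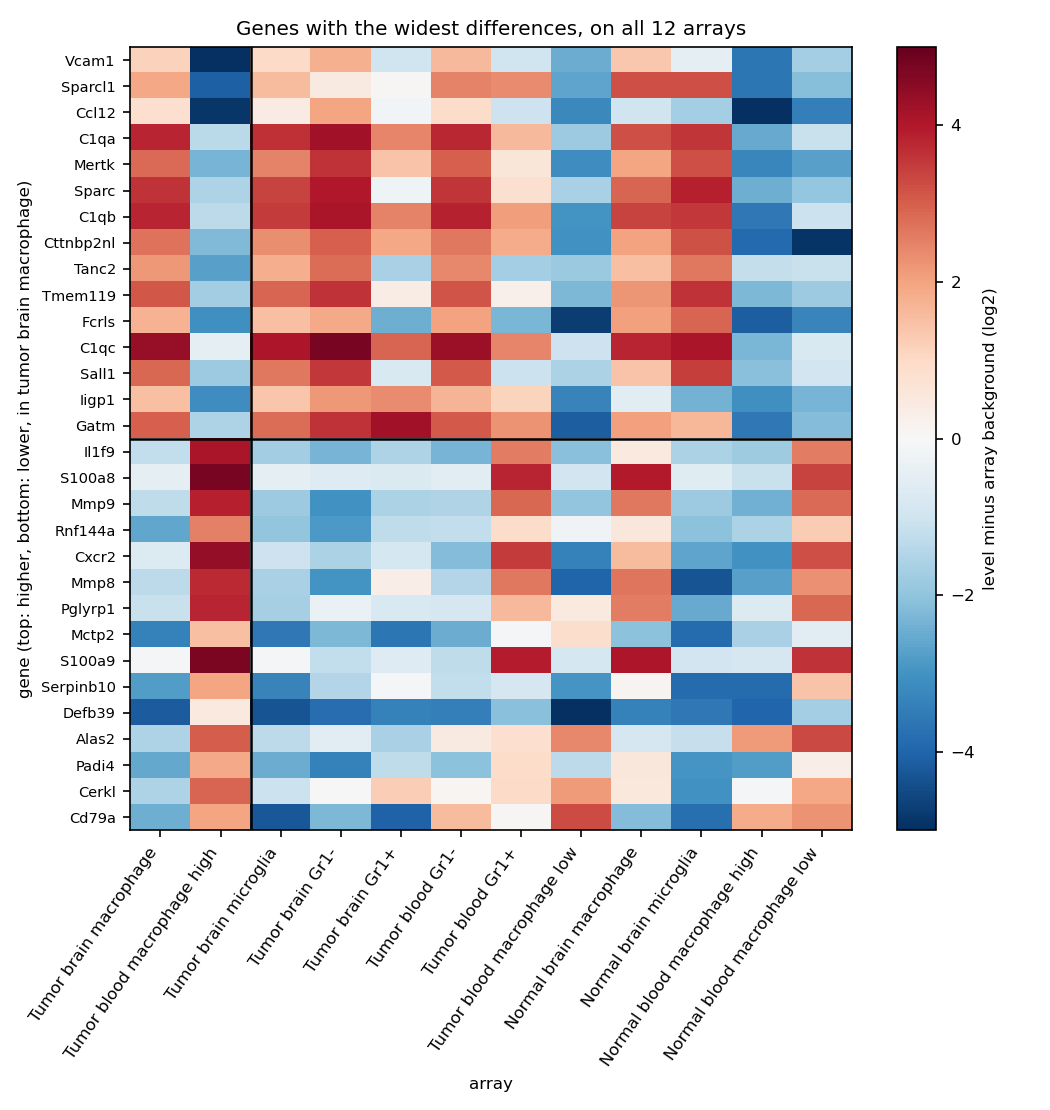
Level relative to the background of each array (colour, log2) of the 15 genes with the largest difference each way among genes above background on the brighter array, on all 12 arrays, 1 per condition. The upper genes, from Vcam1 to Gatm, are red in the tumor brain macrophage column and blue in the tumor blood macrophage high column, and the lower genes, from Il1f9 to Cd79a, the reverse.

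All 12 non-classical monocyte markers were at least 2-fold lower on the tumor brain macrophage array, against 6.2% of the 19937 genes, with a median of -3.33. With the floor 9 of the 12 were, against 3.69%, with a median of -2.07, and Fabp4, a fatty acid carrier with 5.38 on the tumor brain macrophage array and 9.21 on the blood array, turned to 0.02. Nr4a1, the nuclear receptor these monocytes depend on, had 9.75 on the tumor brain macrophage array and 13.37 on the blood array, a 12.3-fold difference above background on both. Pglyrp1, which binds bacterial peptidoglycan, had 8.12 and 12.84, Ace, the angiotensin-converting enzyme, had 7.98 and 12.13, and Treml4 had 7.74 and 11.39. All 12 were above background on the normal blood macrophage low array as well. Among 10 classical markers 6 were at least 2-fold lower, against 6.2%, or 4 with the floor, against 3.69%, with a median of -1.33. The factor XIII chain F13a1 had 9.74 and 11.47 and Chil3, a chitinase-like protein, 8.39 and 10.84, while Ms4a4c had 11.29 on the tumor brain macrophage array and 10.73 on the blood array.

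Immediate early genes, which are switched on within minutes of a stimulus and can also answer cell handling, were lower in 11 of 21 cases and higher in 1 by at least 2-fold, with a median of -1.17. Over the 19937 genes the shares were 6.2% lower and 8.6% higher. Dusp1, a phosphatase that damps MAP kinases, had 10.50 on the tumor brain macrophage array and 13.83 on the blood array, a 10.1-fold difference. Fosb, a partner of Jun in AP-1, was 6.25-fold lower in the tumor, above background on both arrays, and Klf2, a factor of quiescent leukocytes, had 9.09 and 12.59. Egr1 and Jun were within 2-fold, with 11.38 and 11.63 for Egr1 and 10.89 and 11.35 for Jun. Brain and blood were processed as different tissues, so handling and cell identity cannot be told apart here.

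Of 20 cytokine and mediator genes 7 were at least 2-fold higher and 6 at least 2-fold lower, and 8 were below background on both arrays. After quantile normalization 4 were higher, and with the floor 1 was higher and 4 were lower. Among all 19937 genes, the higher side held 8.6% and the lower side 6.2% as deposited, or 1.73% and 3.69% with the floor. Interleukin-1 beta (Il1b) had 11.08 on the tumor brain macrophage array and 13.11 on the blood array, a 4.10-fold difference, whereas interleukin-1 alpha (Il1a) had 10.32 and 6.49, at least 2.46-fold higher in the tumor. The prostaglandin enzyme Ptgs2 had 8.69 and 11.69. Among sensors, the lectin Clec4d had 8.94 and 12.91 and the inflammasome gene Nlrp3 9.70 and 11.46, while Tlr3, which senses double-stranded RNA, had 10.48 and 6.75. The high-affinity IgG receptor Fcgr1 had 12.54 on the tumor brain macrophage array and 10.05 on the blood array, a 5.62-fold difference. Of receptors for colony-stimulating factors, Csf1r, on which microglia and macrophages depend, had 12.99 and 11.90.

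Of 25 myeloid transcription factors 7 were at least 2-fold higher and 5 at least 2-fold lower, against 8.6% and 6.2% of the 19937 genes. With the floor these were 5 and 5, against 1.73% and 3.69%. Spi1, which encodes PU.1, had 10.92 on the tumor brain macrophage array and 11.83 on the blood array, within 2-fold. Irf8, a factor of monocytes and microglia, had 10.97 and 9.84, a difference of 1.13. Maf, a regulator of tissue macrophages, had 9.85 and 7.66, Bhlhe41 11.34 and 8.79, and Etv5 10.53 and 7.29. Cebpb and Cebpd, of the C/EBP family that serves granulocytes and inflammation, had 11.32 and 8.58 on the tumor brain macrophage array and 12.40 and 10.38 on the blood array.

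Of 18 genes linked to alternative activation and border macrophages 7 were at least 2-fold higher and 3 at least 2-fold lower, or 3 and 2 with the floor, and 8 were below background on both arrays. By comparison, 8.6% of the 19937 genes stood on the higher side and 6.2% on the lower, or 1.73% and 3.69% with the floor. Stab1, a scavenger receptor, had 11.10 on the tumor brain macrophage array and 7.74 on the blood array, and Ms4a7 had 10.46 and 6.51. The mannose receptor Mrc1 had 9.39 and 6.76, a bound of only 1.30-fold. Chil3 stood on the blood side, at least 3.06-fold lower in the tumor. Retnla had 7.11 on the tumor brain macrophage array and 9.35 on the blood array, but with the floor its difference was only -0.12. Of 23 glycolysis and hypoxia genes 3 were at least 2-fold higher and 2 at least 2-fold lower, near the shares of 8.6% and 6.2% over the 19937 genes. The pyruvate kinase Pkm had 12.33 and 12.32 and Ldha 11.41 and 11.18. Aldoc had 10.39 and 7.68, an aldolase that astrocytes also make and that was brighter still on both normal brain arrays, at 12.09 in macrophages and 11.95 in microglia. Of iron genes, ferroportin (Slc40a1), the iron exporter, had 10.12 on the tumor brain macrophage array and 12.76 on the blood array, and haptoglobin (Hp) 8.03 and 11.60.

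**Figure D5:**
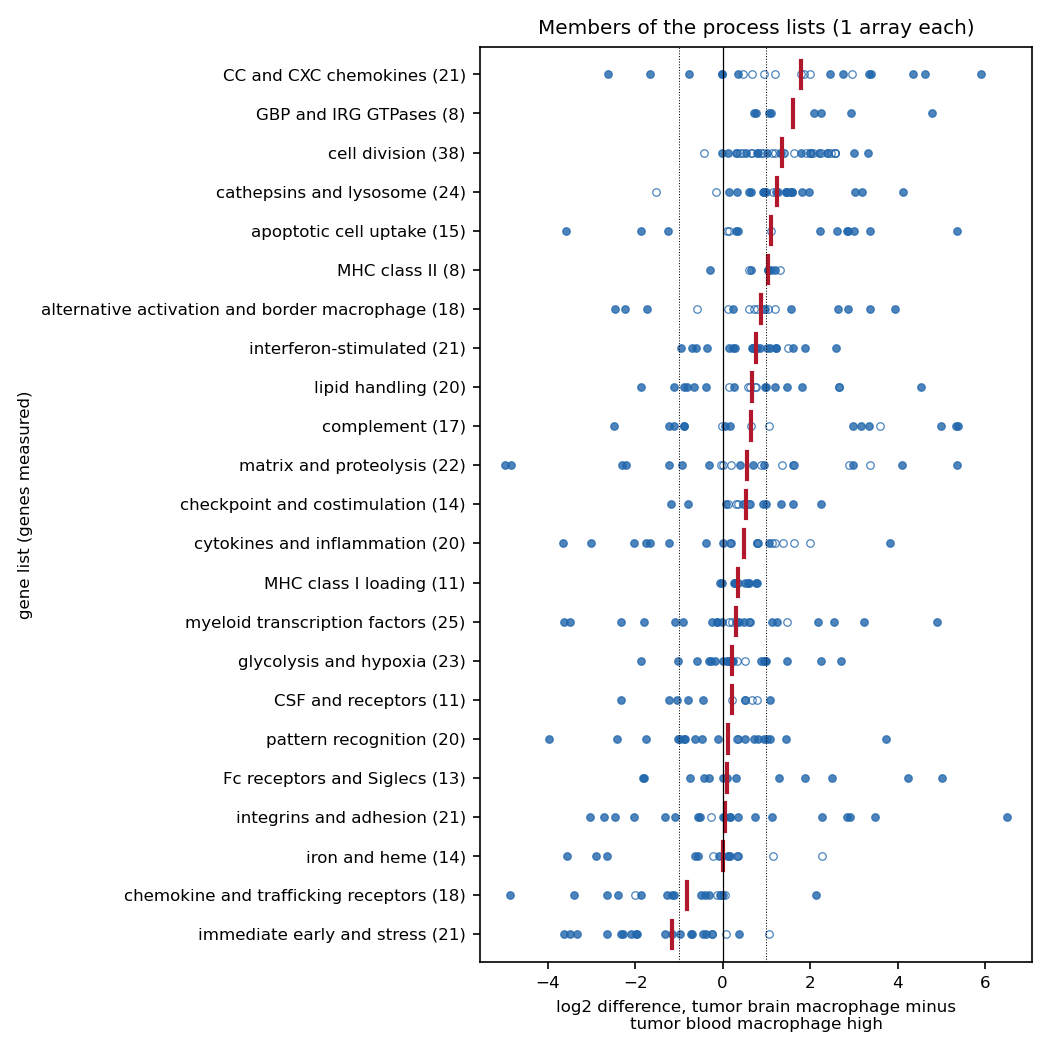
Log2 difference, tumor brain macrophage minus tumor blood macrophage high, of each measured gene in 23 process lists; filled points are genes above background on either array, open points on neither, and the red bar is the list median. Chemokines have the highest median, 1.79, and immediate early genes the lowest, -1.17, and many of the cell division genes are open.

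A few probe sets for microRNA hairpins, chosen after their values were seen, were also lower on the tumor brain macrophage array. Mir27a had 9.27 on the tumor brain macrophage array and 11.41 on the blood array, a 4.43-fold difference, and Mir23a, its neighbour in the genome, had 8.63 and 10.88, at least 3.14-fold lower. Mir142, a hairpin of blood cells, had 9.25 and 10.72. Mir24-2, also looked at, had 7.83 and 8.88, below background on both arrays. These probe sets read the hairpin or its host transcript, and mature microRNAs were not measured. The mature forms of the first pair are shown with the seed, bases 2 to 8, in capitals (RefSeq, GRCm38.p6, chr8:84208563-84208583 and chr8:84208727-84208747, plus strand), and they do not share a seed.

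mmu-miR-23a-3p: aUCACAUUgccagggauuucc

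mmu-miR-27a-3p: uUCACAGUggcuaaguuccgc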

How the data were processed

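Sorted brain and blood cells of 12 conditions were hybridised to Affymetrix Mouse Gene ST arrays, 1 array each. Per the study's methods and labels, sorted cells gave total RNA that was amplified in 2 cycles, and the authors deposited log2 expression values made in Affymetrix's Expression Console; the submitters' processing notes name RMA without a version. The genome build is not given in the sources used here. An array series has no read depth, and the number of arrays limits the precision.

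Of 28944 probe sets, 21789 had 1 gene symbol in the platform annotation, updated through RefSeq (GRCm38.p6), 1621 had several and 5534 none, and probe sets with several or none were left out. A gene with several probe sets was represented by the brightest over all arrays. Values were used as deposited, and the log2 difference, the counts of genes at least 2-fold apart and list medians were computed with Python 3.11.15 and pandas. The paper's methods name thresholds on adjusted p-values, which 1 array against 1 cannot give. Alternatives were quantile normalization over 12 or 2 arrays and cyclic loess (limma 3.58.1), median centring, the mean of all probe sets, filters and a floor at background, a background at the 90th percentile and a 4-fold threshold. The calculation was tested on simulated data.

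The 36 gene lists hold 611 entries, of which 559 were measured. The members and lists, the promoter motifs and the comparison itself were chosen with earlier results of these data known. Named genes are the 15 with the largest difference each way among genes above background on the brighter array, 4 working markers (C1qb, P2ry12, Csf3r and Mki67) and up to 6 members per list with the largest difference above background; genes named outside this rule, mostly those near level, were chosen after their values were seen. Not every gene discussed in the paper is reported.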

Additional observations from a re-analysis of the deposited data

Results flagged for a closer look

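In 4 gene lists with a median of 1 or more in size on both sides, the difference between brain macrophages and the blood cells labelled macrophage high ran in opposite directions in tumor-bearing and in normal mice; the difference between the mice was not tested, since each value rests on 1 array a side. Another 4 lists, of T cells, oligodendrocytes, neurons and endothelium, had opposite signs with a median under 1 in size in at least 1 of the comparisons. The neutrophil list had a median log2 difference of -2.45 in tumor-bearing mice and 3.13 in normal mice. The classical monocyte list had -1.33 in tumor-bearing mice and 1.48 in normal mice, and the non-classical monocyte list had -3.33 and 2.04. The list of immediate early and stress genes had -1.17 in tumor-bearing mice and 1.50 in normal mice. In these lists 15 of 22 neutrophil markers were above background on the normal brain macrophage array and 1 of 22 on its blood counterpart. That blood array also had 11 of 13 NK cell markers above background, against 0 on the tumor blood macrophage high array, so the 2 arrays with the same name carried different marker genes, and the part of this in the opposite directions was not tested.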

How the results depend on the processing

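The count of genes at least 2-fold higher in the tumor brain macrophage array, 1714 as deposited, was 991 and 1058 after quantile normalization over 12 and over 2 arrays, 1095 after cyclic loess, 618 among genes above background on either array, 794 with the background at the 90th percentile, 344 with the floor at background and 401 at a 4-fold threshold. The count of lower genes, 1237 as deposited, was 736 with the floor and 336 at 4-fold, and stayed within 1.5 times under the other alternatives. The median of all genes was 0.22 as deposited and -0.01 after quantile normalization, which moved the share of higher genes among those apart as given above. The filters, the floor and the stricter threshold lower a count by their construction; for the scalings the cause was not tested. The NK cell list has no median where genes below background on both arrays are left out. Of 13 list medians of 1 or more in size none changed sign under the 8 alternatives, but with the floor only 6 stayed at that size, and chemokines had 0.21, cell division 0.21 and B cells -0.58. The floor moved 10 of the 36 list medians and 90 of 187 named genes by more than the SD of the olfactory receptor genes. Of 187 named genes, 3 that were at least 2-fold lower as deposited had a positive difference with the floor, where the blood level was close to background. These were Fabp4 at 0.023, Flt3 at 0.18 and Ltb4r1 at 0.16, against -3.83, -1.04 and -1.88 as deposited. Itga2b, within 2-fold as deposited at -0.22, also changed sign, to 0.083. No paired analysis was possible because each condition has 1 array, and no array could be left out. Background signal limits the folds: the 15 genes with the largest positive difference were all below it in blood, and the 15 with the largest negative difference all below it in the tumor.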

Other observations

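With values below background raised to it, the order of the widest differences changed, and 7 of the 15 genes stayed in the ranking on each side. On the higher side this ranking led with C1qc, C1qa, C1qb, Olfml3 and Sparc, and it took in Slc7a8, an amino acid transporter, with 12.30 on the tumor brain macrophage array and 9.12 on the tumor blood macrophage high array. On the lower side it took in the adhesion receptor Adgre5, with 9.07 and 12.90, Cd24a, with 9.29 and 12.79, and the kinase Sik1, with 9.14 and 12.58. The genes of the deposited ranking that left it, such as Vcam1, Ccl12, Defb39 and Mctp2, owed much of their difference to a level far below background on the dim array.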
